A study of Drosophila melanogaster with 16 samples.

Results

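The cuticle protein genes of *Drosophila melanogaster* were followed in larvae that lack Dfr-L, the stop codon readthrough form of the POU transcription factor Drifter (Dfr, also Ventral veins lacking). Members were all rows of the deposited tables whose gene symbol begins with Cpr, Lcp, Edg (each followed by a number), Ccp84A, Twdl or Acp65A. This gave 31 of the 9731 genes in the table of the larval brain with its attached ring gland (the brain and ring gland complex, or BRGC) and 60 of the 12509 genes in the table of the rest of the body. Of the 65 members in either table, 26 were in both, 5 were in the BRGC table alone (*Cpr72Ea*, *Cpr72Eb*, *Cpr92A*, *Lcp65Ad* and *Lcp65Af*) and 34 were in the body table alone. By family, the BRGC table held 20 Cpr, 8 Lcp, 2 Twdl and 1 Edg gene, and the body table held 42 Cpr, 10 Lcp, 6 Twdl and 2 Edg genes. The reference annotation used here lists 124 genes with such symbols, among them 7 Ccp84A genes and *Acp65Aa*. Those of them without a row in either table were not analysed here.

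The insect cuticle is a layered coat of chitin fibres and proteins that the epidermis, the tracheae, the foregut and the hindgut secrete on their outer face. Most of its structural proteins belong to the CPR family, whose members share the Rebers and Riddiford chitin-binding domain. In *Drosophila* many of these genes are named Cpr with their chromosome band. Older names such as Lcp (larval cuticle protein), Acp (adult cuticle protein), Ccp (cuticle cluster protein) and Edg (ecdysone-dependent gene) remain for several cuticle protein genes. Lcp1 to Lcp4 are major proteins of the larval cuticle. Tweedle (Twdl) proteins form a separate family, in which dominant mutations make the larval and pupal body short and stout. Cuticle genes are switched on and off in stage-specific sets as the titre of the steroid hormone ecdysone rises and falls, and the ring gland is the source of that hormone in the larva.

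The 16 libraries came from untreated wandering larvae, 4 control (w1118) and 4 homozygous *dfr14* libraries for the BRGC and as many for the body. The *dfr14* allele is a small CRISPR/Cas9 deletion behind the first in-frame stop codon of *dfr*, so the short protein Dfr-S is still made. Per the methods, body samples lacked BRGCs, mouth hooks and salivary glands and came from other larvae than the BRGCs. The line sequenced had been crossed to a balancer stock and not yet repeatedly to the control strain, and *dfr14* larvae develop more slowly, so line background and developmental timing cannot be told apart from the allele. The deposited genotype tag follows the tissue and contradicts the sample titles, which were followed here. Reads of *dfr* itself (deposited as *vvl*) do not check the labels, since the deletion leaves the transcript in place. They ran from 63.1 to 68.4 CPM (read counts scaled to a common library total per M reads) in control BRGCs (median 64.1) and from 90.5 to 116 CPM in *dfr14* BRGCs (median 105). Libraries held 17.1 to 30.1 M (mega) reads counted to genes. The summed level of 5 neuronal markers was 968 to 1761 CPM in BRGC and 158 to 246 CPM in body libraries. That of 7 prothoracic gland genes was 618 to 940 and 195 to 387 CPM, with each table scaled on its own. In the body these sums rest mainly on *Syt1* (119 to 212 CPM) and *Npc1a* (162 to 350 CPM), so they say little about the other genes of the lists there. In the fourth control body library 1685 genes lacked reads, while each other body library lacked reads of 32 to 189 genes.

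Each gene was tested within its tissue with limma on the deposited log2 CPM (prior count 2.0), with p-values adjusted by Benjamini-Hochberg over its whole table and a threshold of 0.05. Values below are CPM unless a log2 scale is named, and library numbers are the order of the deposited columns. In bulk RNA, fewer cells of a type and less RNA per cell cannot be told apart.

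In the BRGC, 9 of 31 members rose in *dfr14* and 1 fell, against 10.1% of all genes that rose and 5.90% that fell. The genes that rose were *Cpr51A*, *Cpr64Aa*, *Cpr64Ac*, *Cpr65Ec*, *Cpr72Eb* and *Cpr100A* among 20 Cpr genes, *Lcp65Af* and *Lcp65Ag2* among 8 Lcp genes, and *TwdlE* of 2 Twdl genes. *Cpr11B* fell. The median log2 fold change was 0.34 over the 31 members and -0.02 over all genes. A sum over 25 members left out *Lcp1* to *Lcp4*, *Cpr49Ac* and *Cpr78E*, of which several were not abundant in the BRGC. It was 123, 121, 117 and 118 CPM in the controls and 181, 236, 186 and 200.8 CPM in *dfr14*. The genotypes did not overlap in this sum, but it holds every member past the test, and no member left out passed. *Cpr51A* had a mean of 20.7 CPM in controls and 46.3 CPM in *dfr14*. *Cpr64Ac* had 0 and 24.0 CPM and *TwdlE* 11.7 and 26.3 CPM, while *Cpr11B* fell from 9.23 to 5.72 CPM. The lack of overlap is therefore not evidence apart from these calls. A sum without the genes past the test was not computed. Over all 31 members the sum was 299, 225, 319 and 248 CPM in the controls. In *dfr14* it was 374, 549, 324 and 311 CPM, so the genotypes overlapped. With library size alone in place of TMM scaling, 8 members rose and 1 fell, while over all genes the split moved from 980 up and 574 down to 782 up and 988 down.

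**Figure D1:**
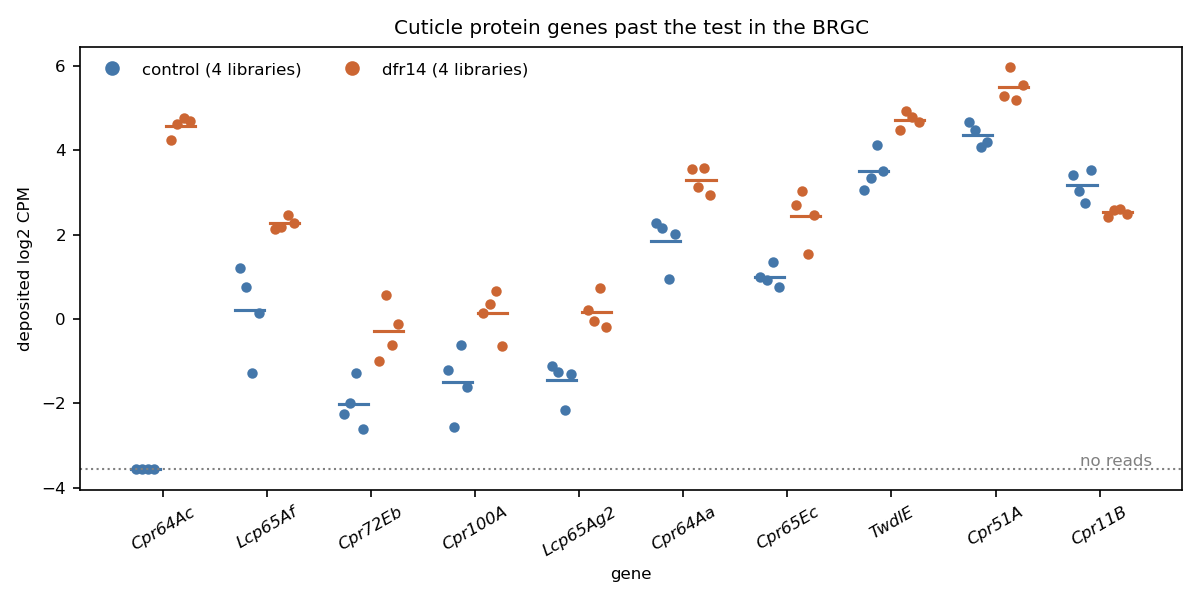
Deposited log2 CPM of the 10 cuticle protein genes past the test in the BRGC, in 4 control and 4 *dfr14* libraries. Points are libraries, bars are group means and the dotted line is the value of a gene without reads. *Cpr64Ac* sits on that line in every control, and *Cpr11B* is the gene that is lower in *dfr14*.

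*Cpr64Ac* showed the widest gap. It lies on chromosome 3L at 4211964 to 4212915 (BDGP6, minus strand) and had 0 reads in all 4 control BRGC libraries. The *dfr14* libraries had 18.8, 24.4, 26.9 and 25.8 CPM, from 406 to 704 reads each. With 3 reads over the control group as the limit that a count of 0 allows, *Cpr64Ac* was at least 809-fold higher in *dfr14* (limma, adjusted p = 5.0e-08). Since one genotype has no reads, the fitted log2 change of 8.14 depends on the prior count and is no bound.

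The neighbouring *Cpr64Aa*, on the same strand at 4207838 to 4209178, had 4.79, 4.38, 1.84 and 3.93 CPM in the controls and 11.7, 8.71, 11.9 and 7.54 CPM in *dfr14*. Every *dfr14* library was above every control (log2 fold change 1.46, SE 0.30, adjusted p = 0.010 by limma). Both genes lie opposite *CG43367*, with which they share 0 exon bases and which had 111 ± 20.02 CPM in controls and 128 ± 11.7 CPM in *dfr14* (SD, n = 4). *CG43367* did not pass the test (adjusted p = 0.28 by limma). Whether the counting used the strand is not given in the sources used here.

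*Cpr51A* (chromosome 2R, 14512559 to 14515211) was the most abundant of the genes that rose, at 51.5 CPM per kilobase of exon over all BRGC libraries. It had 25.5, 22.3, 16.7 and 18.4 CPM in the controls and 39.0, 62.7, 36.4 and 46.9 CPM in *dfr14*. The genotypes did not overlap, and the log2 fold change was 1.14 (SE 0.19, limma adjusted p = 0.0035). *CG30197* on the opposite strand shares 0 exon bases with it and also rose (0.54 on the log2 scale, SE 0.12, adjusted p = 0.016).

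*TwdlE* (chromosome 2L, 7857957 to 7860839), a Tweedle gene, had 8.31, 9.99, 17.3 and 11.3 CPM in the controls and 22.1, 30.2, 27.5 and 25.3 CPM in *dfr14*. The lowest *dfr14* library lay above the highest control (log2 fold change 1.204, SE 0.21, limma adjusted p = 0.0044). Of its exon bases, 968 (71.9%) also lie in exons of *lectin-28C* on the opposite strand. *lectin-28C* rose from 14.6 ± 4.90 to 143 ± 38.8 CPM in the same libraries (SD, n = 4; log2 fold change 3.31, SE 0.24, limma adjusted p = 2.5e-05). The libraries were stranded per the methods, but the strand setting of the counting is not given. The part of *lectin-28C* reads in the value of *TwdlE* was not tested. In the body, *lectin-28C* had 58.7 ± 19.3 CPM in controls and 470 ± 186 CPM in *dfr14* (SD, n = 4). *TwdlE* had 2.99 ± 1.40 and 4.60 ± 1.29 CPM in those libraries. *TwdlT*, the other Twdl gene of the BRGC table, had 4.09 to 5.96 CPM in controls and 5.35 to 9.08 CPM in *dfr14* and did not pass the test (0.34 on the log2 scale, adjusted p = 0.28).

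A further Cpr gene of chromosome 3L, *Cpr65Ec* (7093204 to 7093841), had 1.90, 1.81, 2.45 and 1.62 CPM in the controls and 6.41, 8.14, 2.83 and 5.48 CPM in *dfr14*. The third *dfr14* library was close to the controls and the other *dfr14* libraries were well above them (log2 fold change 1.43, SE 0.31, limma adjusted p = 0.013). At the 65A cluster of CPR genes (chromosome 3L, 6132990 to 6158630 for the 5 members in the BRGC table), *Lcp65Af* had 2.22, 1.60, 0.33 and 1.01 CPM in the controls and 4.32, 4.46, 5.43 and 4.78 CPM in *dfr14*. Its 4 *dfr14* values lay within a narrow span above all controls (log2 fold change 2.06, SE 0.46, limma adjusted p = 0.015). *Lcp65Ag2* of the same cluster had 0.38, 0.34, 0.14 and 0.32 CPM in the controls and 1.07, 0.88, 1.57 and 0.80 CPM in *dfr14*. These levels rest on 3 to 41 reads per library (1.62, SE 0.38, limma adjusted p = 0.019), and *Lcp65Ag2* lost its call without the third *dfr14* library. It is one of the near-identical Lcp65Ag copies, between which the counting could split reads, so the copy is uncertain. The other members of the cluster, *Lcp65Ac*, *Lcp65Ad* and *Cpr65Ay*, had log2 fold changes of -0.43, 0.78 and 0.01 and did not pass the test.

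A pair of genes with few reads passed less firmly. *Cpr72Eb* had 0.13, 0.17, 0.33 and 0.08 CPM in the controls and 0.42, 1.40, 0.57 and 0.84 CPM in *dfr14*, from 2 to 27 reads per library (1.74 on the log2 scale, SE 0.49, limma adjusted p = 0.039). The genotypes did not overlap, but the call was lost in 6 of 8 fits that left out 1 library. *Cpr100A* had 0.35, 0.08, 0.57 and 0.24 CPM in the controls and 1.02, 1.19, 1.49 and 0.56 CPM in *dfr14* (1.63, SE 0.49, limma adjusted p = 0.049). Its genotypes overlapped, and its call was lost in 7 of 8 such fits and under 3 other settings.

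*Cpr11B* (chromosome X, 12553124 to 12554235) was the 1 member that fell in the BRGC. It had 10.6, 8.13, 6.69 and 11.5 CPM in the controls and 5.29, 5.97, 6.04 and 5.57 CPM in *dfr14*. The *dfr14* libraries lay close together below every control, and the level fell by 0.65 on the log2 scale (SE 0.18, limma adjusted p = 0.036), a call lost in 6 of 8 fits that left out 1 library. *Cpr97Ea*, with 7.44 to 8.47 CPM in controls and 8.76 to 18.9 CPM in *dfr14*, also did not overlap between genotypes but did not pass the test (0.56, adjusted p = 0.12). In all, 10 of 31 members did not overlap between genotypes in the BRGC (9 higher and 1 lower), against 22.8% of all genes. A minimum of 10 reads in 4 libraries left 28 of the 31 members, and those that did not were *Cpr72Eb*, *Lcp2* and *Lcp3*.

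The BRGC member with the highest level per length was *Cpr49Ac*, with 68.8 CPM per kilobase of exon. It had 59.8, 94.8, 191 and 123 CPM in the controls and 163, 301, 132 and 101 CPM in *dfr14*, with wide overlap (0.57 on the log2 scale, SE 0.39, limma adjusted p = 0.34). *Edg91*, which codes for a cuticle protein first found through its response to ecdysone, had 2.85, 1.43, 1.98 and 0.61 CPM in the controls and 4.27, 1.76, 0.76 and 1.31 CPM in *dfr14* (0.15, SE 0.56, adjusted p = 0.88).

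*Lcp1* to *Lcp4* varied among libraries of one genotype. Their summed level was 106 CPM in the first control BRGC library and 1.94 to 5.94 CPM in the other controls. In *dfr14* it was 22.0 CPM in the first library and 0.70 to 3.99 CPM in the others. *Lcp4*, the most abundant of the set, had 72.9, 2.44, 4.15 and 1.34 CPM in the controls and 11.5, 0.57, 0.88 and 0.61 CPM in *dfr14* (-1.94 on the log2 scale, SE 1.28, limma adjusted p = 0.33). The body libraries held 1938 to 12902 CPM of the same 4 genes. The part of RNA from other tissue in the BRGC levels was not tested.

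Genes that build, bind or tan the cuticle, chosen by name and outside the member rule, were counted in the same BRGC libraries. Over all genes of the BRGC, 10.1% rose and 5.90% fell. Of 21 measured genes of chitin synthesis and cuticle assembly, 7 rose and 0 fell. They included the chitin-binding proteins *obst-A* (103 ± 10.2 CPM in controls and 168 ± 9.85 CPM in *dfr14*, SD, n = 4; limma adjusted p = 0.00054) and *Gasp* (143 ± 12.2 and 278 ± 53.2 CPM, adjusted p = 0.00097). The chitin deacetylase *Cda5* rose too (10.3 ± 2.26 and 22.0 ± 2.74 CPM, adjusted p = 0.0019). Of 7 structural genes outside the rule 3 rose, *CG16884*, *CG16885* and *CG30101* (*Vajk3*, *Vajk2* and *Vajk4* in the current annotation). *CG16884* went from 0.14 ± 0.03 to 2.59 ± 0.41 CPM and *CG16885* from 0.58 ± 0.12 to 3.98 ± 0.19 CPM. Of 14 tanning and pigmentation genes 4 rose (*yellow-f*, *y*, *e* and *yellow-h*) and *Dat* fell. *yellow-f*, a dopachrome conversion enzyme, had 12.5 ± 3.47 CPM in controls and 35.8 ± 7.93 CPM in *dfr14* (limma adjusted p = 0.0015). The median log2 fold change of these lists was 0.26, 1.12 and 0.33, beside -0.02 over all genes.

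Markers of tissues that secrete cuticle or can adhere to a BRGC were counted beside them, against the same shares of all genes (10.1% up and 5.90% down). Of 11 epidermal genes 0 passed the test (summed level 1055 to 1846 CPM in controls, 1338 to 1568 CPM in *dfr14*), and of 13 ecdysone response regulators 0 did (844 to 1812 and 1252 to 1432 CPM). By limma at an unadjusted p under 0.05 the counts were 0 and 3, and with voom weights they were 0 and 0 after adjustment. Of 6 tracheal genes 2 rose, *Gasp* and *serp*, both also in the assembly list, and the summed tracheal level was 865 to 1045 CPM in controls and 984 to 1232 CPM in *dfr14*. Of 5 hemocyte genes *NimC1* and *He* rose (summed 306 to 789 and 556 to 709 CPM). Each of these markers had reads in every BRGC library, and their part in the rise of the cuticle genes was not tested.

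In the body, 1 of 60 members rose (*Cpr64Ac*) and 1 fell (*Cpr76Bc*), against 1.09% of all genes that rose and 0.328% that fell. The median log2 fold change was 0.04 over the members and 0.12 over all genes. At an unadjusted p under 0.05 by limma there were 11 members, in both directions, and the share of all genes at that limit was not computed. The minimum of 10 reads in 4 libraries left 51 of the 60 members. With library size alone in place of TMM scaling the median over all body genes moved to -0.12, so the sign of so small a median depends on the scaling. The split of all body genes past the test moved from 136 up and 41 down to 113 up and 81 down with it.

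*Cpr64Ac* had 0.15, 0.19, 0.04 and 0.00 CPM in the body controls, from 3, 5, 1 and 0 reads. The *dfr14* bodies had 3.86, 2.73, 4.01 and 4.44 CPM, from 56 to 110 reads. No library of one genotype came near the other, and the log2 fold change was 4.46 (SE 0.45, limma adjusted p = 0.0057). *Cpr64Ac* was thus near or at 0 in all 8 control libraries of both tissues and was read in all 8 *dfr14* libraries.

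*Cpr76Bc* (chromosome 3L, 19520945 to 19527272) had 0.87, 1.54, 1.94 and 2.61 CPM in the body controls, from 18 to 57 reads. It had 0.00, 0.19, 0.07 and 0.00 CPM in *dfr14*, from 0, 4, 2 and 0 reads. Every control was above every *dfr14* library (-3.59 on the log2 scale, SE 0.53, limma adjusted p = 0.023). The call was lost with a prior count of 0.5, with voom weights and in 5 of 8 fits that left out 1 library. *Cpr76Bd* at the same band had 1.51, 2.35, 1.15 and 0.05 CPM in the controls and 0.47, 0.29, 0.51 and 0.97 CPM in *dfr14* (-0.57, SE 0.91, limma adjusted p = 0.96), so the fourth control library was low in this gene.

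A further 3 body members did not overlap between genotypes and did not pass the test. *Cpr67B* had 79.2, 53.5, 115 and 60.2 CPM in the controls and 195, 146, 166 and 116 CPM in *dfr14*, so the lowest *dfr14* library was just above the highest control (1.06 on the log2 scale, SE 0.27, limma adjusted p = 0.14). *Cpr51A* had 16.4 to 30.6 CPM in controls and 30.8 to 54.9 CPM in *dfr14* (0.67, SE 0.26, adjusted p = 0.33). *Cpr78Ca* had 17.2, 14.8, 25.7 and 21.2 CPM in the controls and 14.6, 7.50, 8.01 and 5.35 CPM in *dfr14* (-1.21, SE 0.33, adjusted p = 0.16). Counting the genes past the test as well, 3 members were higher and 2 lower without overlap, 5 of 60 members in all, against 9.15% of all genes.

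**Figure D2:**
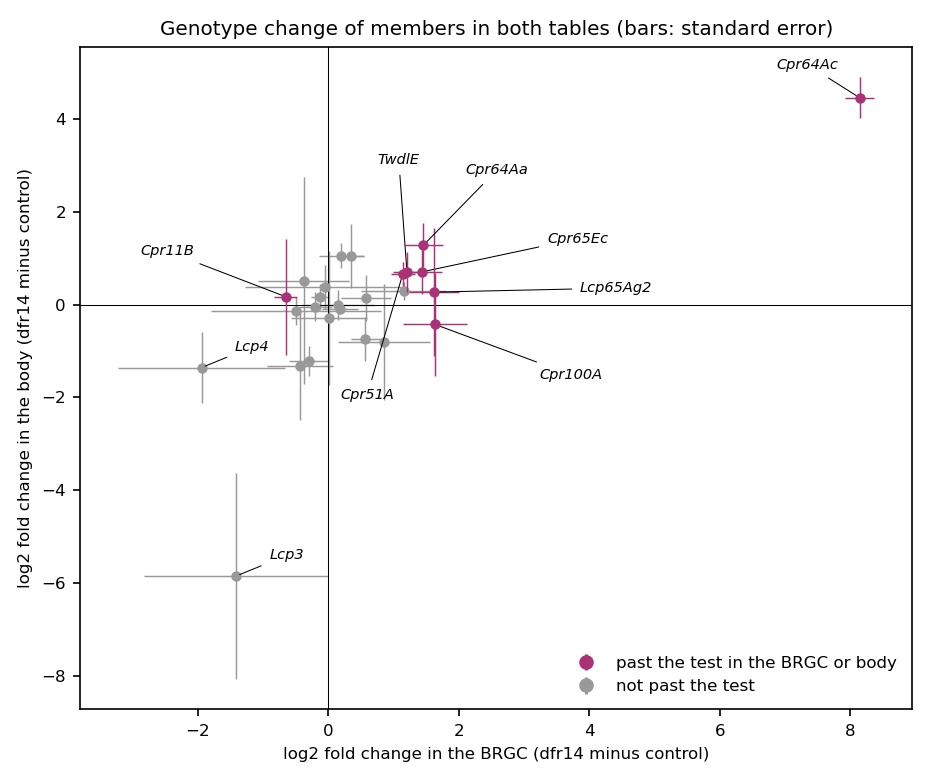
Log2 fold change of the 26 members in both tables, BRGC on the horizontal and body on the vertical axis, with standard errors. *Cpr64Ac* lies at 8.14 and 4.46, the other 25 lie between -5.85 and 1.29 in the body, and *Lcp3* and *Lcp4* are negative in both tissues with wide bars.

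The difference between the 2 genotype changes was tested over the 9256 genes in both tables, of which 1.29% passed. Of 26 members 1 passed, *Cpr64Ac*, whose change was smaller in the body (body minus BRGC -3.68 on the log2 scale, SE 0.49, limma adjusted p = 0.0014). This value depends on the prior count, since the control BRGC libraries hold no reads. *Cpr100A* had the widest gap among the other genes past the BRGC test (1.63 in the BRGC and -0.43 in the body), with a difference of -2.06 (SE 1.23, adjusted p = 0.49), so its changes in the tissues were not shown to differ. *Cpr51A* differed by -0.48 (SE 0.34, adjusted p = 0.57).

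The most abundant members of the body differed in how far their levels spread among libraries. *Cpr49Ac* was highest of the Cpr genes per length (2780 CPM per kilobase of exon), with 9242, 4515, 3809 and 4213 CPM in the controls and 3314, 4287, 11805 and 5897 CPM in *dfr14*. One library of each genotype stood above the rest, and the fold change was 0.14 on the log2 scale (SE 0.49, limma adjusted p = 0.97). *Cpr78E* was the steadiest of the abundant genes, with 886, 867, 842 and 746 CPM in the controls and 760, 802, 829 and 727 CPM in *dfr14* (-0.10, SE 0.11, adjusted p = 0.87).

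Among the major larval cuticle proteins, *Lcp4* had 3265, 5764, 7514 and 6855 CPM in the body controls and 9490, 2550, 727 and 1281 CPM in *dfr14*. The *dfr14* libraries spanned the whole control range and went below it (-1.36 on the log2 scale, SE 0.77, limma adjusted p = 0.54). *Lcp1* was steadier, with 1464 to 1843 CPM in controls and 965 to 2242 CPM in *dfr14* (-0.13, SE 0.30, adjusted p = 0.97). *Lcp3*, singled out after its values were seen, had 294, 3.12, 265 and 2.25 CPM in the controls and 11.99, 0.05, 0.11 and 0.06 CPM in *dfr14* (-5.85, SE 2.22, adjusted p = 0.31). Its controls divided into a pair of high and a pair of low libraries, and the first *dfr14* library lay between them.

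**Figure D3:**
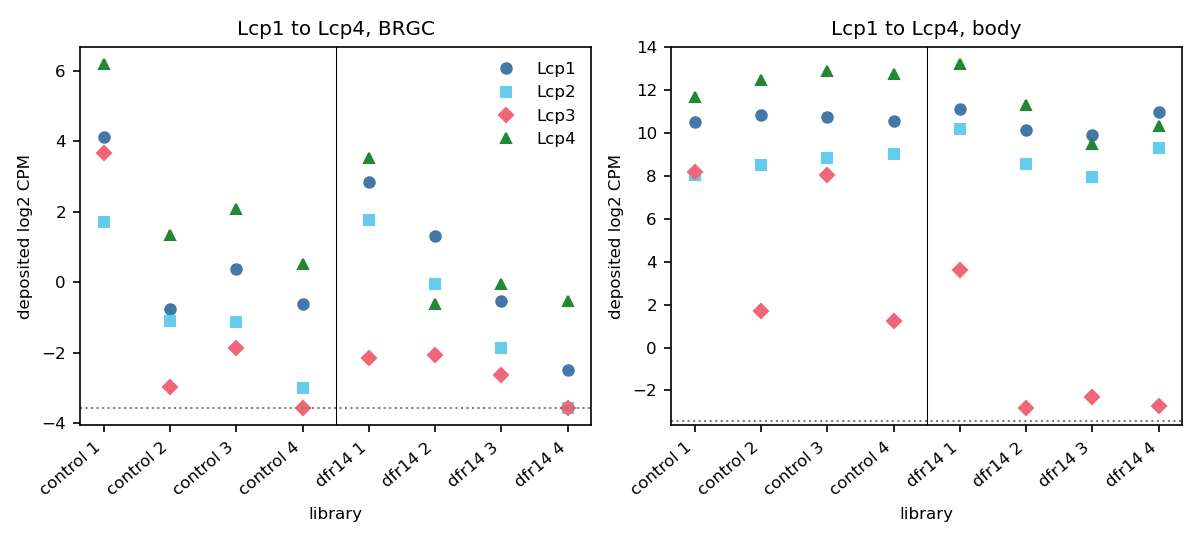
Deposited log2 CPM of *Lcp1* to *Lcp4* in each library, BRGC at the left and body at the right, with controls before and *dfr14* after the upright line. The dotted line is the value of a gene without reads. In the BRGC all 4 genes are highest among controls in the first library, and in the body *Lcp3* spans a wide range within the controls while *Lcp1* and *Lcp2* stay within a few log2 units.

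The spread among libraries of one genotype was wide in these genes. In 58 of 60 body members the range within a genotype exceeded the difference between the genotypes, as it did in 94.7% of all body genes. The residual SD of the fit had a median of 1.202 log2 units over the body members and 0.42 over all body genes, and of 0.62 and 0.18 in the BRGC. Within the *dfr14* bodies 28 of 60 members (46.7%) spanned more than 3 log2 units, against 5.77% of all genes. Within the body controls 20 (33.3%) did, against 22.5%, and 18 of 60 did in both genotypes, against 3.17%. These 2 shares of all genes include the fourth control library, in which 1685 genes lacked reads, and its part in them was not tested. By family, 8 of 10 Lcp genes, 19 of 42 Cpr genes, 1 of 6 Twdl genes and 0 of 2 Edg genes spanned this range within *dfr14*.

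The same libraries were high in most of these genes. The first *dfr14* body library was the highest of its genotype in 24 of the 28. For 15 of the 18 that varied in both genotypes, the third control and the first *dfr14* library were both highest. Over all 60 members this pair was highest in 28 (46.7%), against 17.3% of all genes. The genes counted by range were picked from these same libraries, and no share over equally variable genes was computed. *Cpr11A*, named here after its values were seen, had 0.58, 1.69, 43.5 and 3.44 CPM in the controls and 150, 27.03, 0.29 and 0.40 CPM in *dfr14*. *Cpr47Ec*, *Cpr49Af* and *Cpr60D*, chosen likewise, were highest in the same 2 libraries, with *Cpr49Af* at 2.57, 3.002, 121 and 7.74 CPM in controls and 176, 33.3, 2.15 and 1.76 CPM in *dfr14*. *TwdlX*, highest per length of the body Twdl genes, had 0.87, 1.81, 32.6 and 1.42 CPM and then 63.0, 5.99, 0.69 and 0.85 CPM. The second *dfr14* library was in each case next to the first, and the third and the fourth were near or below the low controls.

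At the 65A cluster (9 members in the body table), *Lcp65Ag3* had 0.05, 0.12, 10.9 and 0.14 CPM in the controls and 11.04, 0.10, 0.00 and 0.11 CPM in *dfr14*, so 1 library of each genotype held nearly all its reads. It overlaps the antisense gene *asRNA:CR46005* over 543 exon bases, all of its own, and belongs to the near-identical copies. *Lcp65Ag2* had 0.00, 0.39, 1.59 and 0.18 CPM and then 4.74, 0.39, 0.11 and 0.00 CPM, highest in the same 2 libraries. *Lcp9*, outside the cluster, had 314 CPM in the first *dfr14* library, 6.56 to 26.3 CPM in the controls and 0.47 to 3.26 CPM in the other *dfr14* libraries. The close pair *Cpr67Fa1* and *Cpr67Fa2*, between which reads could be split, had their highest levels in the same 2 libraries (1.94 and 5.21 CPM, and 5.12 and 5.96 CPM).

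**Figure D4:**
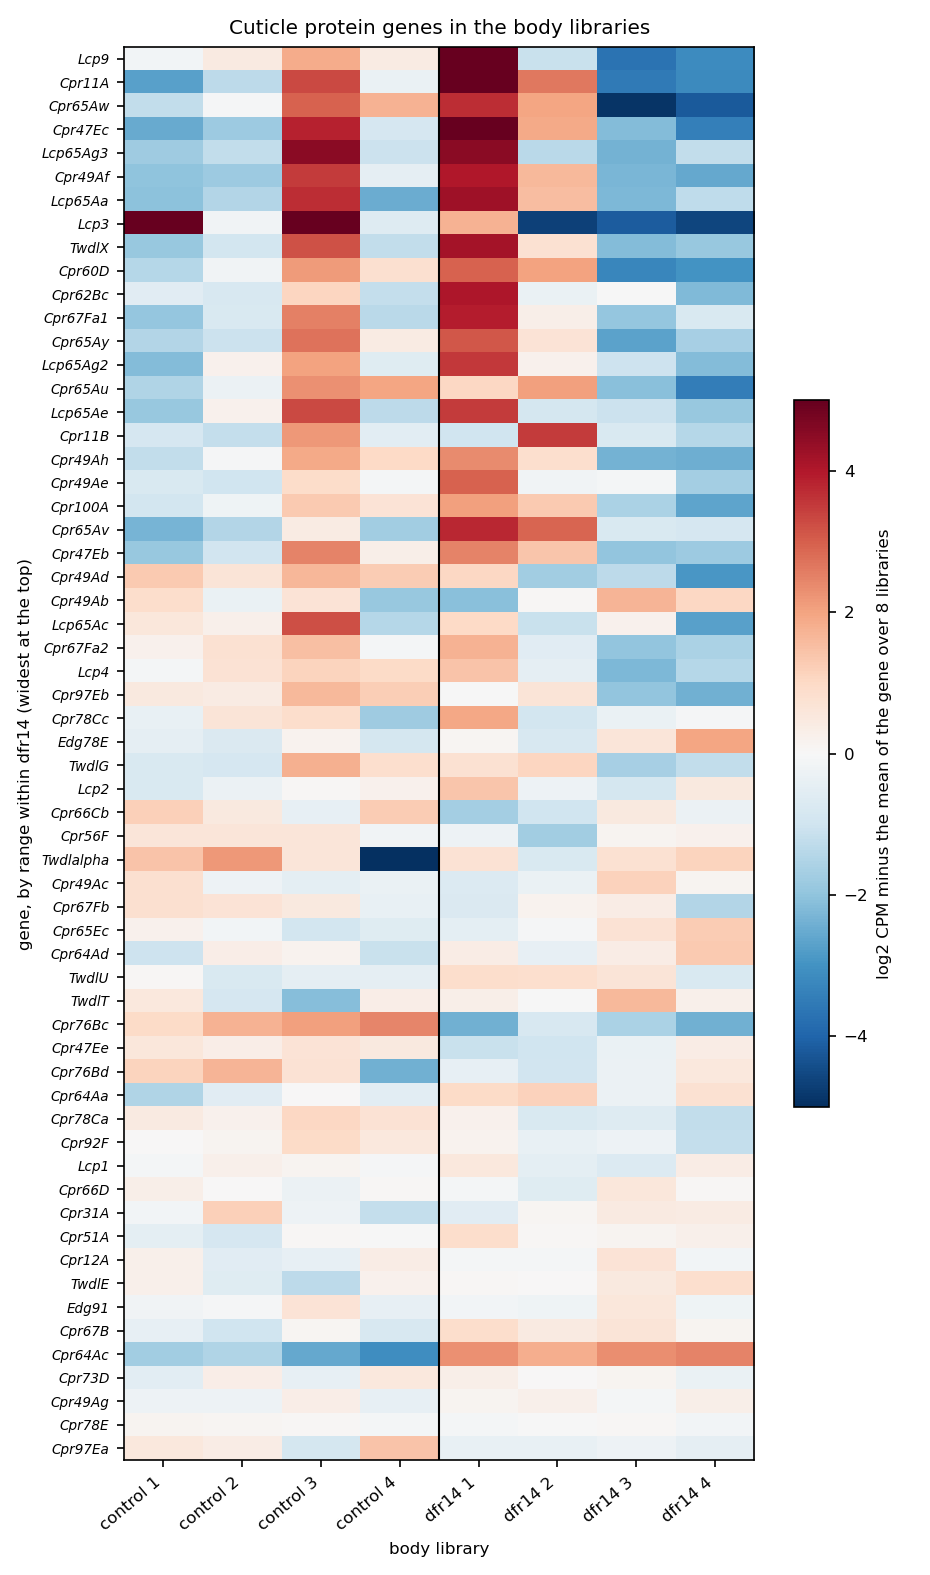
The 60 body members (rows, by their range within *dfr14*) in 8 body libraries, as log2 CPM minus the mean of the gene over all 8, with colours ending at -5 and 5. Most rows at the top are red in the third control and the first *dfr14* library, *Cpr64Ac* and *Cpr76Bc* divide by genotype, and *Twdlalpha* is dark blue in the fourth control library, where it has no reads.

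Some members followed other patterns. *Twdlalpha* had 16.03, 26.8, 9.18 and 0.00 CPM in the controls and 9.89, 3.46, 10.3 and 12.8 CPM in *dfr14*, and the library without a read is the fourth control, which also lacked reads of 1685 genes. Without that library its log2 fold change moved from 0.91 to -0.94. *Twdlalpha* shares 72 exon bases with *CG32568* on the same strand, which likewise had no reads in that library. *Edg91* had 5.59, 6.04, 10.3 and 4.72 CPM in the controls and 5.76, 5.50, 9.43 and 5.46 CPM in *dfr14* (-0.00 on the log2 scale, SE 0.32). *Edg78E*, an ecdysone-dependent cuticle gene of the pupa, had 0.34, 0.27, 0.57 and 0.23 CPM in the controls and 0.54, 0.24, 0.80 and 2.22 CPM in *dfr14* (0.93, SE 0.62, limma adjusted p = 0.63).

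Other gene lists were also set beside these libraries. The summed level of 6 muscle genes was 1779, 2777, 8074 and 3982 CPM in the body controls and 14367, 6983, 1428 and 956 CPM in *dfr14*, with the highest value of each genotype in the same library as most of the variable cuticle genes. All 6 muscle genes, 6 of 8 gut genes and 13 of 24 chitin and assembly genes were highest of their genotype in both the third control and the first *dfr14* library, against 17.3% of all genes. The gut genes summed to 3932, 5204, 10557 and 5268 CPM in the controls and 13078, 7622, 3383 and 4834 CPM in *dfr14*. The 14 tanning and pigmentation genes summed to 8060, 6375, 1143 and 10660 CPM in the controls and 1036, 1174, 3315 and 5205 CPM in *dfr14*, a sum that was lowest in that pair of libraries and rests mainly on *ple*, *e* and *yellow-c*. Its genes did not move as one, since 4 of 14 were lowest and 3 (*t*, *Dat* and *yellow-f2*) were highest in both libraries of the pair. *ple*, the tyrosine hydroxylase that starts the synthesis of the tanning agents, had 2903, 2387, 13.2 and 4214 CPM and then 2.64, 8.57, 312 and 1908 CPM. Of 13 ecdysone response regulators 9 were lowest and 1 (*Hr38*) was highest of their genotype in both libraries of the pair, against 7.11% and 17.3% of all genes, while *EcR*, *usp* and *ftz-f1* were neither. *Hr4*, one of the 9, had 7.33, 4.54 and 15.7 CPM in the third control and the first and second *dfr14* libraries against 87.6 to 138 CPM in the other 5. The 9 salivary gland genes summed to 13808 and 1444 CPM in the third and the fourth controls and to 34.3 to 53.5 CPM elsewhere. These lists hold no members. Each muscle and tanning gene had reads in every body library, 6 of the 9 salivary gland genes had at least 1 library without reads, and the part of these tissues and genes in the spread of the cuticle genes was not tested.

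**Figure D5:**
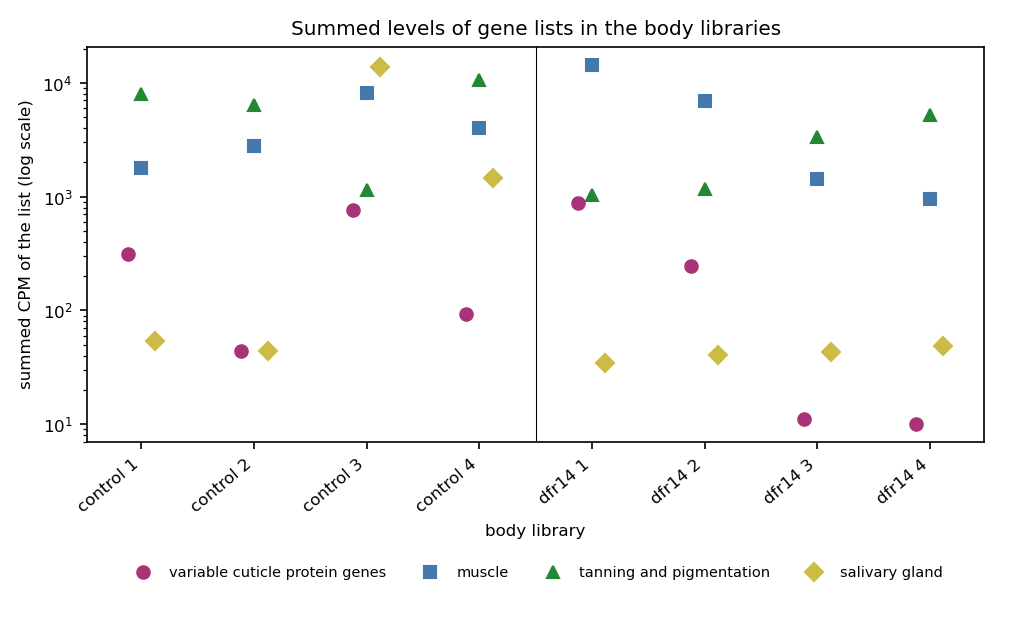
Summed CPM on a log scale, per body library, of the 18 cuticle protein genes that span more than 3 log2 units within both genotypes and of 3 marker lists. The muscle sum is high and the tanning sum low in the third control and first *dfr14* library, where the cuticle protein genes reach 758 and 877 CPM. The 18 genes were picked by their range in these same libraries.

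Of the other body lists, *y*, which acts in dark pigment formation, was the 1 gene past the test among 14 tanning genes. It had 0.29, 0.15, 0.13 and 0.23 CPM in the controls and 2.37, 1.70, 12.1 and 8.08 CPM in *dfr14* (3.99 on the log2 scale, SE 0.66, limma adjusted p = 0.037), a call lost with voom weights. Of 24 chitin and assembly genes and of 6 structural genes outside the rule, 0 passed in the body by limma, with 0 and 1 at an unadjusted p under 0.05 and 0 in both lists with voom weights. The structural gene *CG30101*, which rose in the BRGC, had 0.12 ± 0.05 CPM in the body controls and 1.67 ± 1.08 CPM in *dfr14* (SD, n = 4; adjusted p = 0.062).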

How the data were processed

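Reads were aligned by the authors to BDGP6 with STAR after trimming (Trim Galore), counted per gene with featureCounts (versions and strand setting not given in the sources used here) and scaled by TMM in edgeR. They deposited log2 CPM per library with a prior count of 2.0, which understates changes of low genes. A further 16 columns of per-library values (in total) and the authors' fold change and p-value columns were not used. Columns carry no replicate numbers, and genotypes were read from the tables' own group means. Removing the prior count returned whole reads (100% of values within 0.001). Depth was 17.1 to 30.1 M reads per library, and the zero-read limit of 3 reads covers counting error only.

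Genotypes were compared by an intensity-trend fit of limma (version 3.58.1, in R 4.3.3), per tissue and, for their difference, over all 16 libraries, after tests on simulated data. Libraries of a group are biological replicates per the methods. Alternatives were library size or RLE scaling, a prior count of 0.5, a low-count filter (10 reads in 4 libraries, 15 in total), voom weights (not for the difference), library quality weights and leaving out each library. Members and 15 marker lists were chosen with earlier results of these data known. Named members are those past a test, the 2 highest per length in each family, up to 8 not past the test without overlap of the genotypes (mean of at least 1 CPM), near-identical copies and Edg genes, and from the lists up to 3 genes with the smallest p. *Cpr11A*, *Cpr47Ec*, *Cpr49Af*, *Cpr60D*, *Cpr76Bd*, *Lcp3*, *Lcp9*, *ple*, *e*, *yellow-c*, *t*, *Dat*, *yellow-f2*, *Hr4*, *Hr38*, *EcR*, *usp*, *ftz-f1* and *CG30101* in the body were named after their values were seen. *Syt1* and *Npc1a* were also named after their values were seen. Positions, exon lengths and overlaps come from an Ensembl BDGP6 annotation, in which all members were found by ID. No sequences are shown. Figures used Python 3.11.15 and matplotlib 3.10.9.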

Additional observations from a re-analysis of the deposited data

Results flagged for a closer look

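*Cpr64Ac* was the member whose genotype change differed between the tissues by a test of the difference (body minus BRGC -3.68 on the log2 scale, SE 0.49, limma adjusted p = 0.0014, lower in the body in all fits that left out 1 library). Its controls held 0 reads in the BRGC and 0 to 5 reads in the body. The size of this difference therefore depends on the prior count, and it reached -4.72 among the other settings.

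Single libraries far from the other 3 of their group, by the gap to the nearest relative to the range of the group on the deposited log2 scale, were found in 4 of 64 groups of named members tested. Chance flags about 1 in 20 such groups. *Lcp4* in the BRGC had 11.5 CPM in the first *dfr14* library and 0.57 to 0.88 CPM in the others. *Lcp65Ag3* in the body had 10.9 CPM in the third control library (0.05 to 0.14 CPM in the other controls) and 11.04 CPM in the first *dfr14* library (0.00 to 0.11 CPM in the others). *Edg91* in the body had 9.43 CPM in the third *dfr14* library and 5.46 to 5.76 CPM in the others.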

How the results depend on the processing

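No paired analysis was possible because the columns carry no replicate numbers. In the BRGC, 9 to 10 members were past the test under the other settings and 6 to 10 when 1 library was left out, the fewest without the third *dfr14* library. The calls of *Cpr64Ac*, *Cpr51A*, *TwdlE*, *Cpr64Aa*, *Cpr65Ec* and *Lcp65Af* held in all of these. In the body the count of 2 became 1 with a prior count of 0.5 or with voom weights (both lost *Cpr76Bc*), 7 with library quality weights (*Cpr51A*, *Cpr64Aa*, *Cpr67B*, *Cpr78Ca* and *Lcp3* were added) and 1 to 2 when 1 library was left out. With library size alone it was 3 (*Cpr78Ca* was added). Library quality weights also moved the split of all 12509 body genes, from 136 up and 41 down to 1018 up and 487 down. The rise to 7 members is therefore not particular to them. For the difference between tissues the count of 1 became 2 with library quality weights and 1 to 2 when 1 library was left out, with *Cpr97Ea* added in both cases, the second without the third control body library. With library size alone the split of all genes for the difference moved from 60 up and 59 down to 25 up and 87 down. With library quality weights it was 574 up and 404 down. The causes were not tested.

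The alternatives were run gene by gene for the named members alone. Among those not past the test, the following changed sign in log2 fold change. *Cpr49Ac* in the body was at -0.10 with library size alone and -0.42 with library quality weights. *Edg91* in the body was at 0.092 with voom weights and 0.14 with library quality weights, *Lcp65Ag3* at 1.14 and *Twdlalpha* at -0.96 with library quality weights, and *TwdlX* at -0.022 with voom weights. With 1 library left out, the body values ran from -0.22 to 0.43 for *Cpr49Ac*, from -0.42 to 1.72 for *Cpr67Fa1*, from -0.19 to 0.23 for *Edg91*, from -0.33 to 0.077 for *Lcp1*, from -0.86 to 1.04 for *Lcp65Ag2*, from -1.76 to 1.25 for *Lcp65Ag3*, from -0.90 to 1.55 for *TwdlX* and from -0.94 to 1.78 for *Twdlalpha*. In the BRGC they ran from -0.29 to 0.50 for *Edg91*. *Cpr72Eb* and *Cpr100A* rest on 2 to 39 reads per BRGC library.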

Other observations

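Marker lists of other tissues gave the following counts by limma in the BRGC, where 10.1% of all genes rose and 5.90% fell. Of 6 muscle genes 2 were higher in *dfr14* (*Prm* and *wupA*), of 6 gut genes 1 was higher (*LManII*), and of 6 disc genes 1 was lower (*ap*). Of 4 salivary gland genes 1 was higher (*sage*) and 1 lower (*fkh*), and of 7 prothoracic gland genes 4 were lower (*sad*, *spok*, *dib* and *nvd*). Of 7 fat body, 5 neuronal and 3 glial genes 0 passed, with 1, 0 and 0 at an unadjusted p under 0.05 and 0 in each with voom weights. The second control BRGC library had 8188 CPM of fat body genes, against 328 to 1240 CPM in the other BRGC libraries. In the body, *y* was the 1 gene past the test among all 15 lists, and voom weights gave 0 in each.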
